A study of Rattus norvegicus with 11 samples.

Results

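The interleukin 10 family and its receptors were followed in rat calvarial defects through 6 genes, the ligands Il10, Il19 and Il24 and the receptor chains Il10ra, Il10rb and Il20rb. The 6 genes were taken by symbol from tables of 23781 genes, and all 6 were present. Defects that crossed the coronal suture and the bone on either side of it were made in Sprague Dawley rats with an age of 4 months by the labels. Tissue that had grown into the defects 6 weeks after surgery was digested, and the Cd45- fraction was sorted for RNA-seq. PLA (2 libraries) received a polylactic acid electrospun membrane, CTS (3 libraries) a porous chitosan scaffold, GelMA (3 libraries) a gelatin methacryloyl hydrogel, and NC (3 libraries) had the defect left without a scaffold. The study used male rats, and the defect, strain and sort were shared by all 4 groups.

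Ligands of this family are small helical cytokines that bind a receptor made of a ligand-specific chain and a shared chain. Il10, the founding member and an inhibitor of macrophage activation, binds Il10ra together with Il10rb, which engage the kinases Jak1 and Tyk2 and the transcription factor Stat3. Il10rb is also the shared chain for Il22 and the type III interferons, whereas Il19, Il20 and Il24 use Il20rb with a partner chain and act mainly on epithelial and stromal cells. In rodents, Il24, Il20, Il19 and Il10 lie side by side in a single gene cluster.

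In PLA, Il10, Il19 and Il10rb were higher than in every other group, by 2.65-fold to 31.1-fold for Il10, 12.7-fold to 43.2-fold for Il19 and 3.45-fold to 5.28-fold for Il10rb. Il20rb was lower in PLA than in CTS and NC, at 0.208-fold and 0.234-fold. Of 22 alternative settings of the analysis, Il10 against GelMA passed the thresholds of the test in 11. Il20rb against CTS and NC passed them in 20 and 18. For Il24 and Il10ra, no comparison passed the test. GelMA took second place for Il10, at 11.7-fold the NC level.

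Levels are read counts normalised to library size after TMM scaling (CPM), or the authors' FPKM where genes are compared with each other, because FPKM corrects for gene length. All 6 members passed the filter on low counts with 18049 genes in all. The 11 libraries entered 1 model of edgeR, tested by quasi-likelihood, and p-values were adjusted after Benjamini and Hochberg across those genes. A called gene had an adjusted p below 0.05 together with a log2 fold change above 1 or below -1. The members were chosen with earlier results of these same libraries known, so their direction below is not independent evidence. The comparisons with PLA share its 2 libraries, and those with NC share its 3. Labels do not say whether the libraries of a group came from separate animals, so p-values measure the spread between these libraries.

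Total counts were 30150370 and 30932534 in PLA, 28377088 to 31290849 in CTS, 29108144 to 30587865 in GelMA and 22509898 to 27522199 in NC. Reads of Ptprc, the gene for Cd45, were present in every library, at 1020 and 1055 CPM in PLA, 1036 to 1272 CPM in CTS, 1138 to 1347 CPM in GelMA and 336 to 1460 CPM in NC. The libraries labelled Cd45- thus held leukocyte RNA in all groups, and the label is used here only as the name of the sort. The study's antibody list gives an anti-mouse clone for this sort, used on fixed and permeabilised cells. NC replicate 2 stood apart, with 336 CPM of Ptprc and a summed level of 9 fibroblast and mesenchyme markers at 227164 CPM, the highest in NC, so results against NC are also given without it. In bulk libraries, fewer cells of a type and less RNA per cell cannot be told apart.

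**Figure D1:**
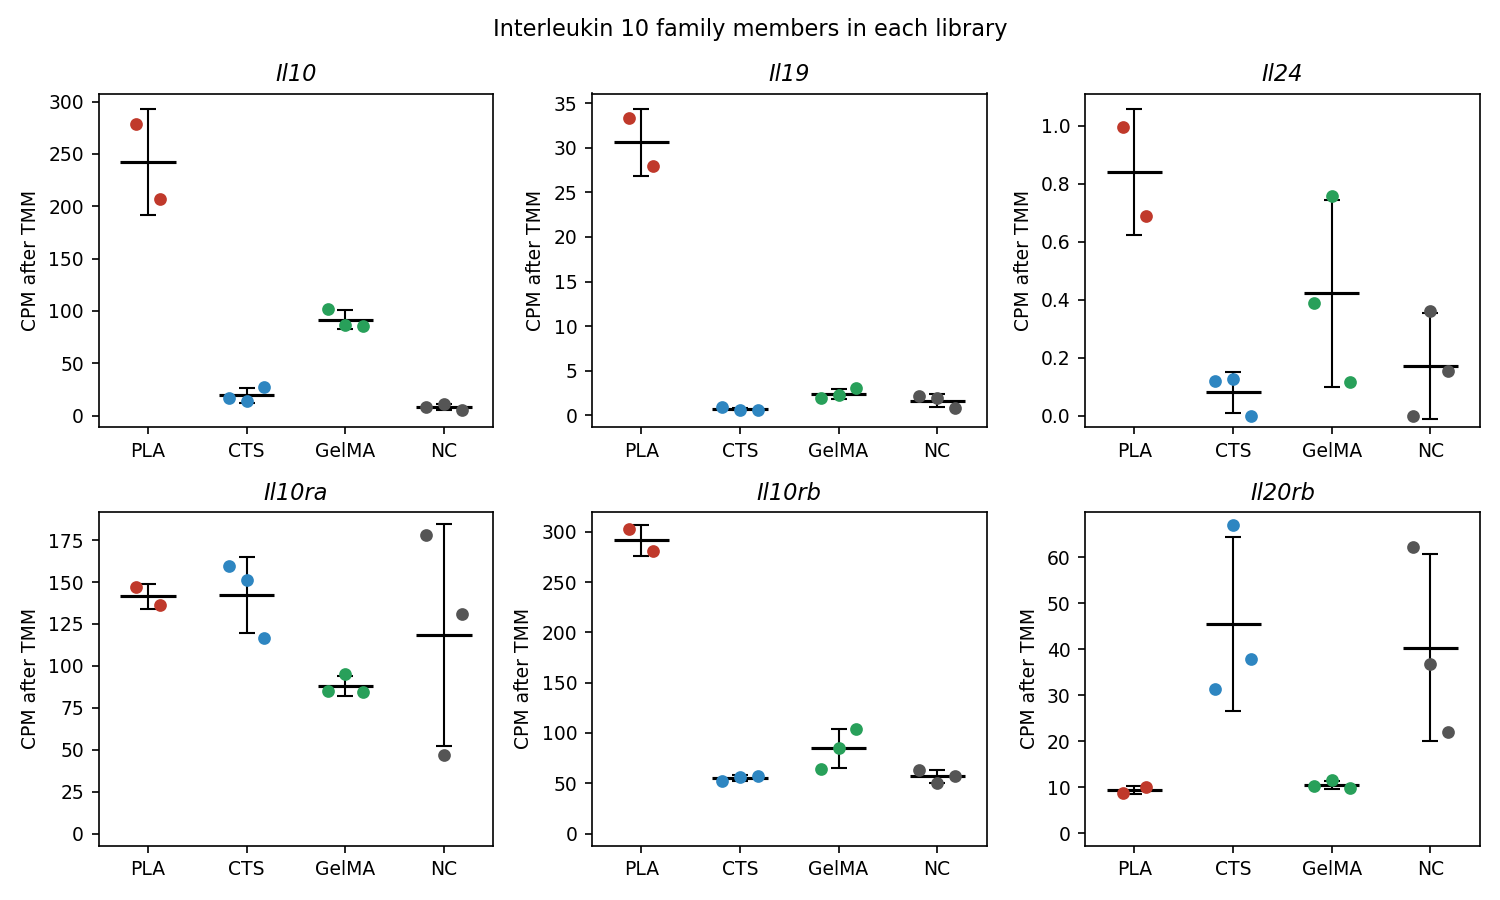
Level of each member in each of the 11 libraries, as CPM after TMM scaling on a linear axis. Points are libraries, horizontal lines group means and error bars 1 SD. The PLA points of Il10, Il19 and Il10rb lie above all other points, and the PLA and GelMA points of Il20rb lie below all CTS and NC points.

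The 5 start regions in the promoter table of RefSeq (build GRCr8) that belong to members cover 250 bases before and 50 bases after the annotated start. The table has no entry for Il10. They are shown for the members that moved, Il19 and Il10rb as genes raised in PLA and Il20rb as the member lowered there, with Il24 as the cluster neighbour of Il19. Capitals mark matches, on either strand, to the motifs STAT (TTCNNNGAA), C/EBP (TTGCNNAA) and MAF site (TGCTGAC). The regions lie at chr13:44958665-44958964, minus strand (Il19), chr13:44910711-44911010, minus strand (Il24), chr11:44132386-44132685, plus strand (Il10rb) and chr8:109888914-109889213, minus strand (Il20rb).
Il19: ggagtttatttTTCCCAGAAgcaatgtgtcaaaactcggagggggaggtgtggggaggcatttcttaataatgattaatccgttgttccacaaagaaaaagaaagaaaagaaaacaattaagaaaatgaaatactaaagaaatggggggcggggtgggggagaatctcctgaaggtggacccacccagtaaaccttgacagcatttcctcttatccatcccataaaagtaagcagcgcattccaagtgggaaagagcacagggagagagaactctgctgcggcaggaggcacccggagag
Il24: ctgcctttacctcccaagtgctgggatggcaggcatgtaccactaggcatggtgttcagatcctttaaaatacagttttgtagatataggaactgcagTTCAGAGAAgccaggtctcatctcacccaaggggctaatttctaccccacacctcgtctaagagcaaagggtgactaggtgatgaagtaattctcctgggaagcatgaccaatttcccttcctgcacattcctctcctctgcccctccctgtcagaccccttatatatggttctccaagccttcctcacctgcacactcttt
Il10rb: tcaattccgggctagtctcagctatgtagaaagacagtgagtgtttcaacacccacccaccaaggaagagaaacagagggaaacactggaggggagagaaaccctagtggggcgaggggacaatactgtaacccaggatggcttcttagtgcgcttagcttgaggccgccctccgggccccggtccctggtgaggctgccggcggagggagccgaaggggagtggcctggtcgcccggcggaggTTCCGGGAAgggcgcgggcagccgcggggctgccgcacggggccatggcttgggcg
Il20rb: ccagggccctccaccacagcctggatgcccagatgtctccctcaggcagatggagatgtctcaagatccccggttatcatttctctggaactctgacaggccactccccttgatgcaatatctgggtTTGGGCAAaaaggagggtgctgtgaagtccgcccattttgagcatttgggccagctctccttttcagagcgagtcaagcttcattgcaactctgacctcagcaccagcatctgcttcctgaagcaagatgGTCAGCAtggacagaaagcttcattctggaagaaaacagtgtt

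Il19, Il24 and Il10rb each held 1 match to the STAT letters, whose first base lay at -239 in Il19, -152 in Il24 and -6 in Il10rb, counted from the start site. STAT factors are the proteins that carry the signal of these receptors to the nucleus. Among all 33469 promoters of the same length, 8.87% held such a match, so the letters are not rare. Il20rb held no STAT match but 1 C/EBP match with its first base at -123 and 1 MAF site within the transcribed bases, letters found in 10.6% and 4.44% of all promoters. Il10ra held no match to the 3 motifs, nor to AP-1 (TGANTCA), found in 7.33% of promoters, or the NF-kB motif, found in 0.362%. No motif overlapped another in the regions shown.

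Il10, which restrains macrophages and other immune cells, had 278 and 207 CPM in PLA. It had 16.7, 13.4 and 27.4 CPM in CTS, 102, 86.8 and 86.0 CPM in GelMA, and 7.85, 10.5 and 5.02 CPM in NC. The 4 groups did not overlap, and their order from high to low was PLA, GelMA, CTS and NC. The mean level was 243 ± 50.6 CPM in PLA (SD, n = 2), 19.2 ± 7.28 CPM in CTS (SD, n = 3), 91.5 ± 8.90 CPM in GelMA (SD, n = 3) and 7.80 ± 2.76 CPM in NC (SD, n = 3).

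The log2 fold change of Il10 was 3.66 ± 0.35 (SE) in PLA against CTS, with an edgeR adjusted p of 0.000171. Against NC it was 4.96 ± 0.37, with an edgeR adjusted p of 5.05e-05, and against GelMA 1.41 ± 0.33, with an edgeR adjusted p of 0.0289. The call against GelMA was the least secure of these. It was lost on leaving out either PLA library or any GelMA library, with adjusted p of 0.0869 to 0.198. It was also lost when libraries were scaled by library size alone, where the log2 fold change was 0.87 and the adjusted p 0.0568. Among the other groups, Il10 was higher in GelMA than in NC by 3.55 ± 0.34 (edgeR adjusted p 0.000463). It was lower in CTS than in GelMA, at a log2 fold change of -2.25 ± 0.32 (edgeR adjusted p 0.0121), a call lost without CTS replicate 1 or 2 or any GelMA library (adjusted p 0.0532 to 0.0820). In CTS against NC it was 1.30 ± 0.31, with libraries that did not overlap but an edgeR adjusted p of 0.134. The neighbours in the order of Il10 levels that did not differ beyond the test were thus CTS and NC. Without NC replicate 2, the log2 fold changes against NC were 5.24 in PLA (adjusted p 1.68e-05), 1.58 in CTS (adjusted p 0.0594) and 3.83 in GelMA (adjusted p 0.000213).

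Il10 also stood apart when set against Ptprc. Per length it reached 28.5% and 39.7% of the Ptprc FPKM in PLA, against 1.65% to 3.84% in CTS, 9.93% to 11.1% in GelMA and 0.625% to 4.55% in NC. Leukocytes are the main source of Il10 in most tissues. Of 6 leukocyte markers, 1 was called higher and 0 lower in PLA against CTS, 0 either way in PLA against GelMA and 1 higher in PLA against NC, where 6.42%, 4.61% and 8.32% of all genes were called higher and 3.53%, 1.47% and 4.01% lower. That marker was Cd53 in both, a call lost without either PLA library, and against CTS also without any CTS library or GelMA replicate 1 or 2, and Cd52 was at 0 in the PLA libraries. Lower calls appeared in other settings. With the 2 groups fitted alone, 1 leukocyte marker was higher and 2 lower against CTS, and 1 higher and 1 lower against GelMA. DESeq2 called 1 higher and 1 lower against each of CTS, GelMA and NC. Summed over the list, leukocyte markers reached 3921 and 3933 CPM in PLA, 3057 to 3700 CPM in CTS, 3393 to 3607 CPM in GelMA and 967 to 4470 CPM in NC. Of 13 monocyte and macrophage markers, 2 were called higher in PLA than in CTS, 2 lower in PLA than in GelMA, 5 higher in PLA than in NC and 9 higher in GelMA than in NC, with 0 called the other way in each. The share of all genes called higher in GelMA against NC was 5.03%. These counts moved with single libraries. Without PLA replicate 1 or 2, the macrophage markers called higher were 1 against CTS and 3 against NC, as they were 1 against CTS without CTS replicate 1 or 2 and 3 against NC without NC replicate 3. Those called lower in PLA than in GelMA ranged between 0, without PLA replicate 1, and 4, without NC replicate 1. In the settings that kept all libraries, 1 to 8 were lower in PLA than in GelMA and 0 higher. The count was 5 by library size alone, 5 with the 2 groups fitted alone and 6, 6 and 8 in the limma fits on FPKM. The summed level of the 13 markers was 5038 and 5673 CPM in PLA and 10683 to 13248 CPM in CTS. It was 5960 to 9453 CPM in GelMA and 2775 to 11293 CPM in NC. Most of that sum was Lyz2, a lysozyme gene that neutrophils also express, at 3079 and 3711 CPM in PLA, 9389 to 12098 CPM in CTS, 3919 to 7268 CPM in GelMA and 2306 to 10182 CPM in NC. Without it, a split made after the values were seen, the other 12 markers summed to 1959 and 1962 CPM in PLA, 1151 to 1294 CPM in CTS, 1914 to 2185 CPM in GelMA and 469 to 1111 CPM in NC, so PLA then lay above CTS in place of below it. Of 7 T and natural killer cell markers in the table, 5 were higher in GelMA than in NC. In PLA against NC, 5 were higher and 1 lower, or 3 and 0 with the 2 groups fitted alone. In PLA against GelMA, 1 was lower, or 5 with the 2 groups fitted alone. In CTS against GelMA, 4 were lower, or 0 without CTS replicate 1, beside 1.32% of all genes called lower. The summed level of these 7 markers was 184 and 196 CPM in PLA and 133 to 182 CPM in CTS. It was 423 to 497 CPM in GelMA and 43.9 to 134 CPM in NC. Of 6 B cell markers, 6 were higher in GelMA than in NC and 6 lower in PLA than in GelMA, with 0 the other way. In PLA, 3 were lower than in CTS, or 0 without CTS replicate 1. Against NC, 1 was higher in PLA, or 0 without NC replicate 3. In CTS, 4 were lower than in GelMA, or 0 without GelMA replicate 1. Their summed level was 30.1 and 48.5 CPM in PLA and 76.4 to 121 CPM in CTS. It was 261 to 388 CPM in GelMA and 21.0 to 39.8 CPM in NC. Cell numbers or states behind these markers were not tested as a part of the Il10 result.

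Il19, a ligand of the receptor that holds Il20rb and known from activated monocytes and epithelium, had 33.3 and 27.9 CPM in PLA. It had 0.886, 0.632 and 0.590 CPM in CTS, 1.95, 2.25 and 3.04 CPM in GelMA, and 2.21, 1.99 and 0.766 CPM in NC. In counts, PLA held 803 and 650 reads of Il19, against 18 to 30 in CTS, 65 to 104 in GelMA and 20 to 52 in NC. PLA lay far above the rest, while GelMA and NC overlapped and CTS and NC overlapped. The mean level was 30.6 ± 3.79 CPM in PLA (SD, n = 2), 0.703 ± 0.160 CPM in CTS, 2.41 ± 0.561 CPM in GelMA and 1.65 ± 0.777 CPM in NC (SD, n = 3 each).

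The log2 fold change of Il19 was 5.43 ± 0.46 in PLA against CTS (edgeR adjusted p 8.83e-05), 3.66 ± 0.42 against GelMA (edgeR adjusted p 0.000841) and 4.21 ± 0.43 against NC (edgeR adjusted p 0.000202). All 3 calls stood in each of the 22 alternative settings run, and without NC replicate 2 the value against NC was 4.37. On the log2(FPKM + 1) scale the same changes are smaller, because Il19 is low there: the lowest value against CTS was 1.84. CTS was below GelMA in every library, at -1.77 ± 0.40, with an edgeR adjusted p of 0.0505 that 6 of 22 alternatives brought under the threshold. Without NC replicate 2 this log2 fold change was -1.77 (edgeR adjusted p 0.0119). CTS against NC, at -1.22 ± 0.40 (edgeR adjusted p 0.259), and GelMA against NC, at 0.55 ± 0.38 (edgeR adjusted p 0.377), did not pass the test.

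Il24, a ligand of the same receptors, was close to the floor of detection. It had 24 and 16 counts in PLA, 4, 4 and 0 in CTS, 13, 25 and 4 in GelMA and 0, 8 and 4 in NC. PLA exceeded CTS and NC in every library and overlapped GelMA. The log2 fold changes were 3.29 ± 1.52 against CTS (edgeR adjusted p 0.183), 0.99 ± 1.43 against GelMA (edgeR adjusted p 0.720) and 2.27 ± 1.48 against NC (edgeR adjusted p 0.337). Il24 passed the filter on low counts through PLA and GelMA libraries, and at this depth a difference was not detectable.

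Per length, Il10 was the most abundant of the 3 ligands in all 11 libraries. The ratio of Il19 to Il10 in FPKM was 0.0519 and 0.0587 in PLA, 0.00936 to 0.0230 in CTS, 0.00833 to 0.0153 in GelMA and 0.0663 to 0.122 in NC. Hence Il19 stood in a higher ratio to Il10 in NC and PLA than in CTS and GelMA, with no overlap, even though the level of each ligand was far lower in NC than in PLA.

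Turning to the receptors, Il10ra is the ligand-binding chain for Il10 and is largely restricted to leukocytes. It had 147 and 136 CPM in PLA, 159, 151 and 116 CPM in CTS, 84.9, 94.9 and 84.3 CPM in GelMA, and 178, 47.1 and 131 CPM in NC. PLA lay within the ranges of CTS and NC and above GelMA. The log2 fold change in PLA was -0.01 ± 0.41 against CTS (edgeR adjusted p 0.994), 0.69 ± 0.41 against GelMA (edgeR adjusted p 0.330) and 0.25 ± 0.41 against NC (edgeR adjusted p 0.728). The sign against CTS and against NC turned in some settings, and it was -0.13 against NC without NC replicate 2. In GelMA, Il10ra was at -0.43 ± 0.37 against NC (edgeR adjusted p 0.480), and without NC replicate 2 at -0.81 (adjusted p 0.00488), which passed the threshold on p but not that on the fold. CTS was at 0.69 ± 0.37 against GelMA (edgeR adjusted p 0.383) and at 0.26 ± 0.37 against NC (edgeR adjusted p 0.820), and without NC replicate 2 at -0.12 against NC (adjusted p 0.770). No comparison of Il10ra was called. As a share of Ptprc in FPKM, Il10ra was 19.2% and 21.4% in PLA, 16.7% to 19.0% in CTS, 9.38% to 12.4% in GelMA and 16.7% to 20.8% in NC. GelMA thus had the lowest Il10ra relative to Ptprc while its Il10 was the second highest.

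Il10rb, the broadly expressed chain shared by Il10, Il22 and type III interferon receptors, had 302 and 281 CPM in PLA. It had 52.2, 56.0 and 57.4 CPM in CTS, 64.4, 85.2 and 104 CPM in GelMA, and 63.4, 50.4 and 57.5 CPM in NC. All PLA values exceeded the others by a wide gap, GelMA lay above CTS and NC in every library, and CTS and NC overlapped. The mean level was 292 ± 15.3 CPM in PLA (SD, n = 2), 55.2 ± 2.73 CPM in CTS, 84.6 ± 19.8 CPM in GelMA and 57.1 ± 6.52 CPM in NC (SD, n = 3 each).

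The log2 fold change of Il10rb was 2.40 ± 0.20 in PLA against CTS (edgeR adjusted p 8.08e-05), 1.79 ± 0.20 against GelMA (edgeR adjusted p 0.000713) and 2.35 ± 0.20 against NC (edgeR adjusted p 6.31e-05). These had the smallest standard errors of any member, and all 3 calls stood in each of the 22 alternative settings. Without NC replicate 2 the value against NC was 2.27. GelMA was 0.57 ± 0.18 above NC (edgeR adjusted p 0.0694), and CTS was at -0.62 ± 0.18 against GelMA (edgeR adjusted p 0.106) and -0.05 ± 0.18 against NC (edgeR adjusted p 0.943).

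The chains that make the Il10 receptor were also set against each other within each library. In FPKM, Il10rb over Il10ra was 2.82 in both PLA libraries, 0.448 to 0.676 in CTS, 1.04 to 1.69 in GelMA and 0.489 to 1.47 in NC. The Il10rb transcript was therefore the more abundant of the pair in the PLA and GelMA libraries and the less abundant in every CTS library, while NC had values on both sides of 1. Il10 over Il10ra was 1.85 and 1.48 in PLA, 0.0870 to 0.230 in CTS, 0.894 to 1.17 in GelMA and 0.0374 to 0.219 in NC. The highest NC value of each ratio came from NC replicate 2, whose Il10ra was low. These ratios are descriptions of the transcripts, with no test.

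**Figure D2:**
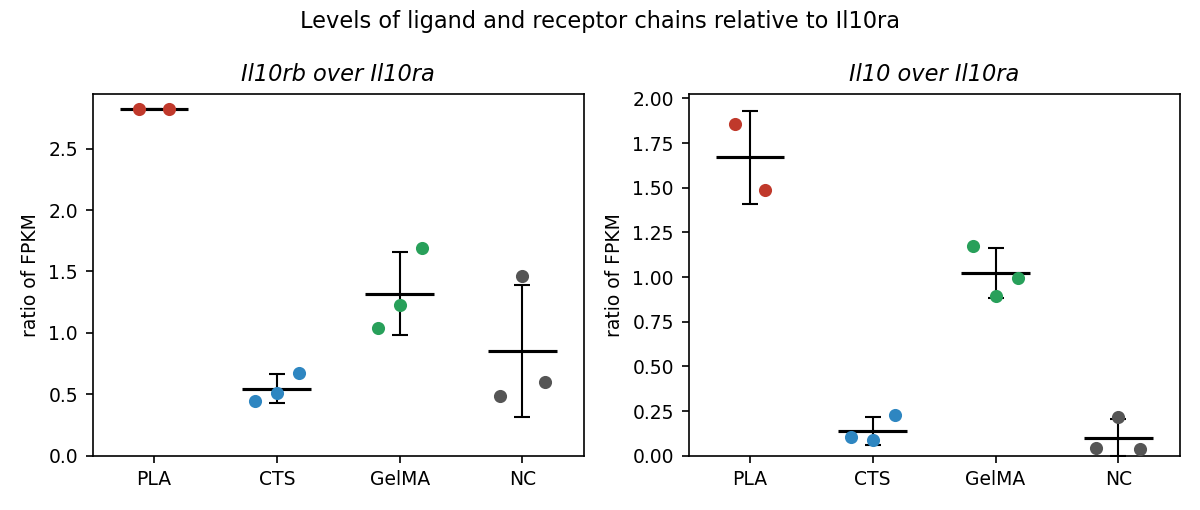
Ratio of FPKM in each library, for Il10rb over Il10ra (left) and Il10 over Il10ra (right), on linear axes from 0. Points are libraries, lines group means and error bars 1 SD. PLA sits at 2.82 on the left and at 1.48 and 1.85 on the right, above every other library in both.

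Il20rb, the shared chain of the receptors for Il19, Il20 and Il24, ran the other way. It had 8.83 and 10.1 CPM in PLA, 31.4, 67.0 and 38.0 CPM in CTS, 10.2, 11.5 and 9.84 CPM in GelMA, and 62.3, 36.9 and 21.9 CPM in NC. PLA and GelMA overlapped at the low end, and CTS and NC overlapped at the high end, with a gap between these pairs. The mean level was 9.44 ± 0.867 CPM in PLA (SD, n = 2), 45.4 ± 18.9 CPM in CTS, 10.5 ± 0.890 CPM in GelMA and 40.4 ± 20.4 CPM in NC (SD, n = 3 each).

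The log2 fold change of Il20rb was -2.27 ± 0.45 in PLA against CTS (edgeR adjusted p 0.00942) and -2.10 ± 0.45 against NC (edgeR adjusted p 0.0118). Without PLA replicate 1 these adjusted p were 0.0953 and 0.101, and without PLA replicate 2 they were 0.0788 and 0.0819. Against NC the call was also lost when the 2 groups were fitted alone (adjusted p 0.110). GelMA was likewise lower than NC, at -1.94 ± 0.38 (edgeR adjusted p 0.0121), a call lost without GelMA replicate 3 (adjusted p 0.0583). CTS was higher than GelMA by 2.11 ± 0.38 (edgeR adjusted p 0.0267), and this call was lost without CTS replicate 1 or 2, any GelMA library or either PLA library (adjusted p 0.0519 to 0.121). PLA against GelMA was at -0.16 ± 0.42 (edgeR adjusted p 0.862), and CTS against NC at 0.17 ± 0.37 (edgeR adjusted p 0.894). Without NC replicate 2, the values against NC were -2.16 in PLA (adjusted p 0.0108) and -2.00 in GelMA (adjusted p 0.00982).

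Markers of neutrophils and mast cells are given beside Il20rb. The summed level of 10 neutrophil markers was 8878 and 9501 CPM in PLA, 28173 to 47986 CPM in CTS, 4914 to 12076 CPM in GelMA and 9416 to 69861 CPM in NC. Of the 9 that passed the filter, 4 were called lower and 1 higher in PLA against CTS, and 5 lower and 1 higher in PLA against NC, beside 3.53% and 4.01% of all genes called lower. These neutrophil counts all fell to 0 without either PLA library, and those against CTS also without CTS replicate 1 or 2, whereas without NC replicate 2 the count lower against CTS was 7. The call of Csf3r against CTS was lost in 9 of 11 fits without 1 library. The summed neutrophil level in NC overlapped that of PLA and GelMA, where Il20rb did not. The higher marker was Csf3r in both, a receptor of mature granulocytes. The summed level of 5 mast cell markers was 31.4 and 38.9 CPM in PLA, 183 to 251 CPM in CTS, 39.9 to 47.5 CPM in GelMA and 181 to 815 CPM in NC, and 4 of the 5 were lower in PLA than in NC, or 2 of them without either PLA library. Across the groups, the mast cell sum had a gap between PLA and GelMA on the low side and CTS and NC on the high side, as Il20rb did. One of them, the mast cell protease gene Mcpt2, had 1 count in a PLA library and 0 in the other. Their part in the Il20rb result was not tested.

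Epithelial markers bear on Il19 and Il24, whose known sources and targets include keratinocytes. Of 8 listed, 5 were in the table and Krt1 had 1 count in a CTS library and 0 elsewhere. The summed level was 21.8 and 40.1 CPM in PLA, 12.9 to 19.8 CPM in CTS, 9.52 to 21.7 CPM in GelMA and 9.13 to 13.8 CPM in NC. Nearly all of it in PLA came from Cdh1, at 19.5 and 37.3 CPM.

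In counts of calls, 4 of 6 members were called in PLA against CTS, where 9.95% of all genes tested were called. Of these, 3 were higher, beside 6.42% of all genes, and 1 was lower, beside 3.53%. In PLA against GelMA, 3 members were called (6.08% of all genes), 3 higher (4.61%) and 0 lower (1.47%). In PLA against NC, 4 were called (12.3%), 3 higher (8.32%) and 1 lower (4.01%). In CTS against GelMA, 2 were called (1.74%), 1 higher (0.416%) and 1 lower (1.32%), and in GelMA against NC, 2 were called (8.24%), 1 higher (5.03%) and 1 lower (3.21%). In CTS against NC, edgeR called 0 members, beside 0.177% of all genes (0.155% higher and 0.0222% lower), 2 members had an unadjusted p under 0.05, and DESeq2 called 1, Il10.

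Groups of so few libraries often fail to overlap, so the same was counted over all genes. In PLA against CTS, 4 members lay above in every library, as did 26.5% of all genes, and 1 lay below, as did 27.8%. In PLA against GelMA, 4 lay above (27.7%) and 0 below (30.7%), and in PLA against NC, 4 lay above (21.9%) and 1 below (17.2%). In CTS against GelMA, 2 lay above (17.0%) and 3 below (19.0%). In CTS against NC, 1 lay above (9.51%) and 0 below (5.11%), and in GelMA against NC, 2 lay above (19.3%) and 1 below (11.2%). Shares of this size mean that a lack of overlap alone is common here, also for genes that are not called.

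Il10, Il19 and Il10rb were the 3 members called higher in PLA in all 3 comparisons, as were 598 genes in all. Without NC replicate 2, the members called against NC numbered 4 in PLA, 0 in CTS and 2 in GelMA. For the 6 members together, the median change in PLA on the log2 scale was 2.85 against CTS, 1.20 against GelMA and 2.31 against NC, beside -0.03, -0.04 and -0.11 over all genes tested. Scaling by library size alone moved that median of all genes by -0.48, -0.54 and -0.32 in these 3 comparisons, and the fold changes given here are relative to TMM.

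**Figure D3:**
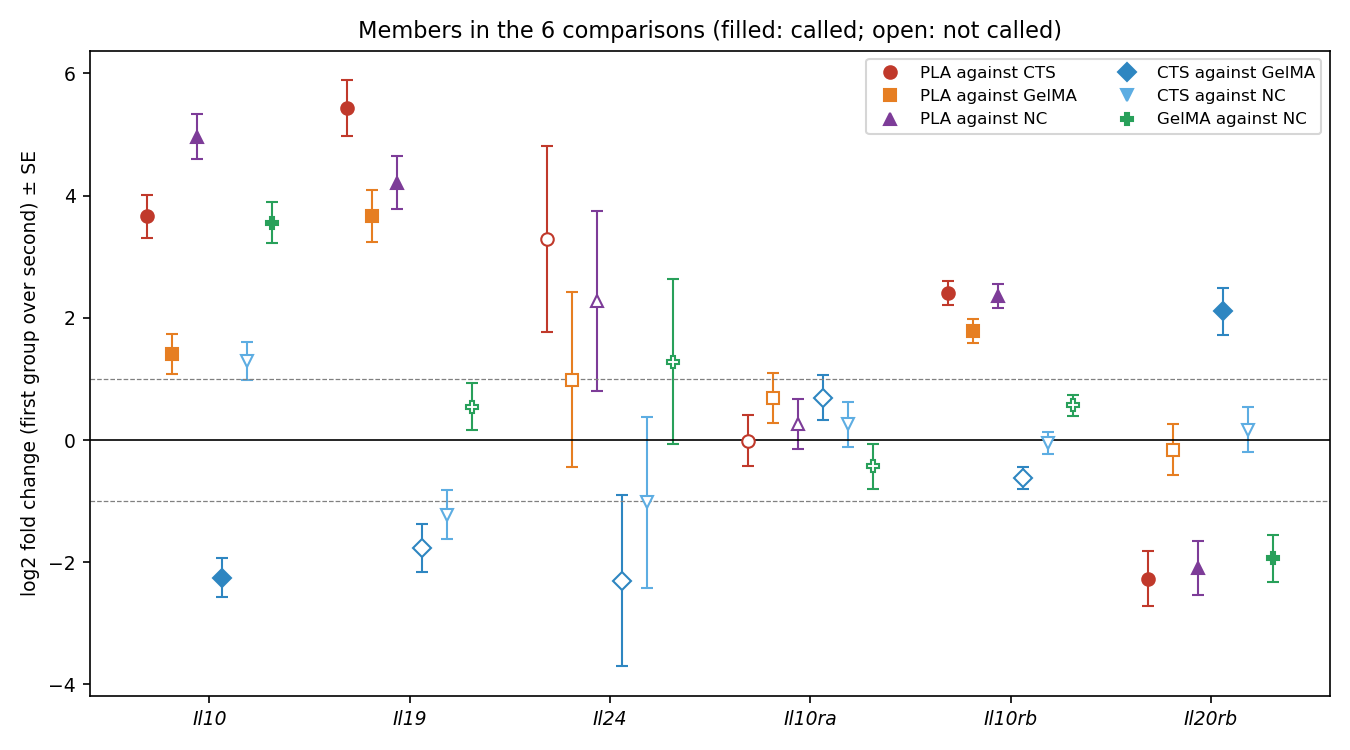
Log2 fold change of each member in the 6 comparisons, first-named group over second, with error bars of 1 SE from the edgeR model of all 11 libraries. Filled symbols were called and open ones were not, and dashed lines mark the fold threshold at 1 and -1. Il10, Il19 and Il10rb have 3 filled PLA symbols above 1, and Il20rb has filled symbols at -2.27 and -2.10.

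The rest of the family was followed through 8 further ligands and receptors, of which 7 were in the table and 4 passed the filter. The absent gene was the receptor chain Il20ra, so no level is given for it. Il20, the cluster neighbour between Il24 and Il19, had 170 and 103 counts in PLA, 3, 8 and 0 in CTS, 11, 26 and 20 in GelMA, and 32, 1 and 1 in NC. PLA lay above all other libraries. The call was made against CTS, at a log2 fold change of 5.60 ± 1.48 (edgeR adjusted p 0.0319), and was lost on leaving out any one PLA, CTS or GelMA library, with adjusted p up to 0.146. Against GelMA it was 3.33 ± 1.32 (edgeR adjusted p 0.148) and against NC 3.57 ± 1.34 (edgeR adjusted p 0.102).

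Il22, a lymphocyte product that acts on epithelium and signals through Il10rb, had 67 and 44 counts in PLA, 2, 0 and 18 in CTS, 122, 94 and 123 in GelMA, and 0 in each NC library. Set against a floor of 3 counts over the NC group, Il22 was at least 56.1-fold higher in PLA and at least 80.8-fold higher in GelMA. No bound is given for CTS, where 18 of the 20 counts came from CTS replicate 3. It was called higher in PLA and in GelMA than in NC, with edgeR adjusted p of 0.0153 and 0.0160, and leaving out a PLA or a GelMA library lost the call for that group (up to 0.0642 and 0.0575). The PLA call was also lost with PLA and NC fitted alone (edgeR adjusted p 0.0907). Il22 passed the filter on low counts only through libraries with a scaffold, so these tests against NC are not independent of the filter. CTS against NC was not called (edgeR adjusted p 0.330). GelMA, with the highest T cell marker level, also had the highest Il22.

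Il22ra2 encodes a soluble decoy that binds Il22. It had 95.8 and 87.6 CPM in PLA, 16.5, 15.7 and 18.3 CPM in CTS, 11.9, 14.6 and 22.7 CPM in GelMA, and 15.3, 7.59 and 17.4 CPM in NC. PLA stood above the rest, which overlapped one another. It was called higher in PLA in all 3 comparisons, by 2.44 ± 0.34 against CTS (edgeR adjusted p 0.00154), 2.48 ± 0.34 against GelMA (edgeR adjusted p 0.00216) and 2.77 ± 0.35 against NC (edgeR adjusted p 0.000615), and it kept the call without any one library. Ifnlr1, the private chain of the type III interferon receptor, was called in no comparison and reached its highest level, 78.5 CPM, in NC replicate 2. Il22ra1, the membrane receptor for Il22, had 0 counts in all PLA and CTS libraries, which allows up to 3 counts, and at most 4 in a GelMA or NC library. The type III interferon genes Ifnl1 and Ifnl3 were at 0 in nearly all libraries, with at most 1 and 4 counts.

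**Figure D4:**
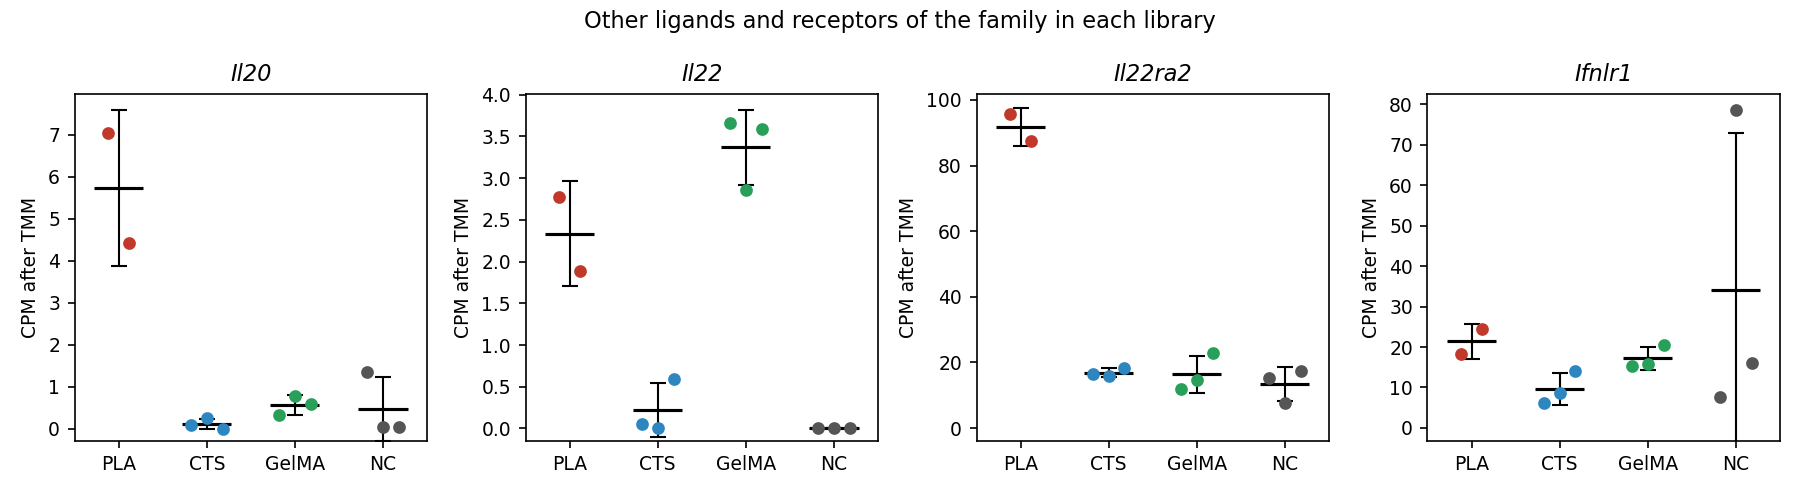
Levels of 4 further family genes in the 11 libraries, as CPM after TMM scaling on linear axes. Points are libraries, lines group means and error bars 1 SD, cut at the lower edge of a panel where they pass it. Il22ra2 and Il20 are highest in PLA, and Il22 is at 0 in all NC libraries.

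Signal transducers downstream of the receptors were followed next. Socs3, the feedback inhibitor induced by Stat3 and a gene known to respond to Il10, was called higher in PLA in all 3 comparisons. It averaged 2210 ± 49.5 CPM in PLA (SD, n = 2), 352 ± 152 CPM in CTS, 675 ± 74.9 CPM in GelMA and 502 ± 246 CPM in NC (SD, n = 3 each). Its log2 fold changes were 2.65 ± 0.41, 1.71 ± 0.40 and 2.14 ± 0.41 against CTS, GelMA and NC, and the call against GelMA was lost without any one PLA or GelMA library. Stat3 itself was not called, at 0.51 ± 0.17 against CTS, 0.20 ± 0.17 against GelMA and 0.04 ± 0.17 against NC. Jak1 was called higher in PLA than in CTS, by 1.11 ± 0.32 (edgeR adjusted p 0.0437), a call lost in 9 of 11 fits without 1 library. Stat5a was higher in GelMA than in NC by 1.01 ± 0.15 (edgeR adjusted p 0.00302), just past the fold threshold, and fell short of it in 7 of 11 fits without 1 library. Tyk2, Jak2, Stat5b and Socs1 were not called in any comparison.

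Of 18 genes known to respond to Il10 in mouse or human macrophages, 17 were tested. In PLA, 9 were higher than in CTS, 8 higher than in GelMA and 7 higher than in NC, with 0 lower in each, beside 6.42%, 4.61% and 8.32% of all genes called higher. These counts leaned on single libraries and on the processing. Without PLA replicate 1 they were 5, 1 and 4 in the same order, and without PLA replicate 2 they were 2 against GelMA and 4 against NC. Against GelMA the count was 3, 4 and 5 without GelMA replicate 1, 2 and 3, and against NC it was 4 without NC replicate 3 and 3 with the 2 groups fitted alone. With PLA and GelMA fitted alone, 8 genes were higher and 3 lower in PLA. By limma on log2(FPKM + 1) 4 were higher and 3 lower than in GelMA, and by library size alone 4 and 1. The list had a median change on the log2 scale of 1.12 against CTS, 0.91 against GelMA and 0.99 against NC. Il1rn, the interleukin 1 receptor antagonist, had the largest change, at 4.21 ± 0.49 against CTS, 2.45 ± 0.46 against GelMA and 5.03 ± 0.51 against NC, the call against GelMA being lost without either PLA library or GelMA replicate 2 (adjusted p up to 0.0684). Its mean was 11402 ± 107 CPM in PLA (SD, n = 2), 617 ± 131 CPM in CTS, 2091 ± 999 CPM in GelMA and 349 ± 156 CPM in NC (SD, n = 3 each). Hmox1, which breaks down heme, rose by 2.91 ± 0.48, 2.20 ± 0.47 and 1.82 ± 0.47 against CTS, GelMA and NC, with the last pair lost without either PLA library and some others (adjusted p up to 0.110 and 0.123). Ddit4, an inhibitor of mTOR signalling, rose by 2.22 ± 0.23, 1.89 ± 0.23 and 2.77 ± 0.24 in the same comparisons and kept all 3 calls without any one library.

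Other members of the response list did not follow. Cd163, the hemoglobin scavenger receptor of macrophages, averaged 0.956 CPM in PLA, 1.27 CPM in CTS, 9.45 CPM in GelMA and 3.09 CPM in NC, and no comparison was called. Mertk, a receptor for apoptotic cells, averaged 10.3 CPM in PLA, 5.81 CPM in CTS, 24.1 CPM in GelMA and 4.16 CPM in NC. It was called only outside PLA, lower in CTS than in GelMA (edgeR adjusted p 0.0495, lost without most single libraries) and higher in GelMA than in NC (edgeR adjusted p 0.00850). In GelMA against NC, 3 of the list were higher, namely Il1rn, Mertk and Slamf1, where 5.03% of all genes were called higher, and 5 were higher without NC replicate 2. Many genes of this list also respond to other cytokines and to stress, and how much of their change goes with Il10 was not tested.

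**Figure D5:**
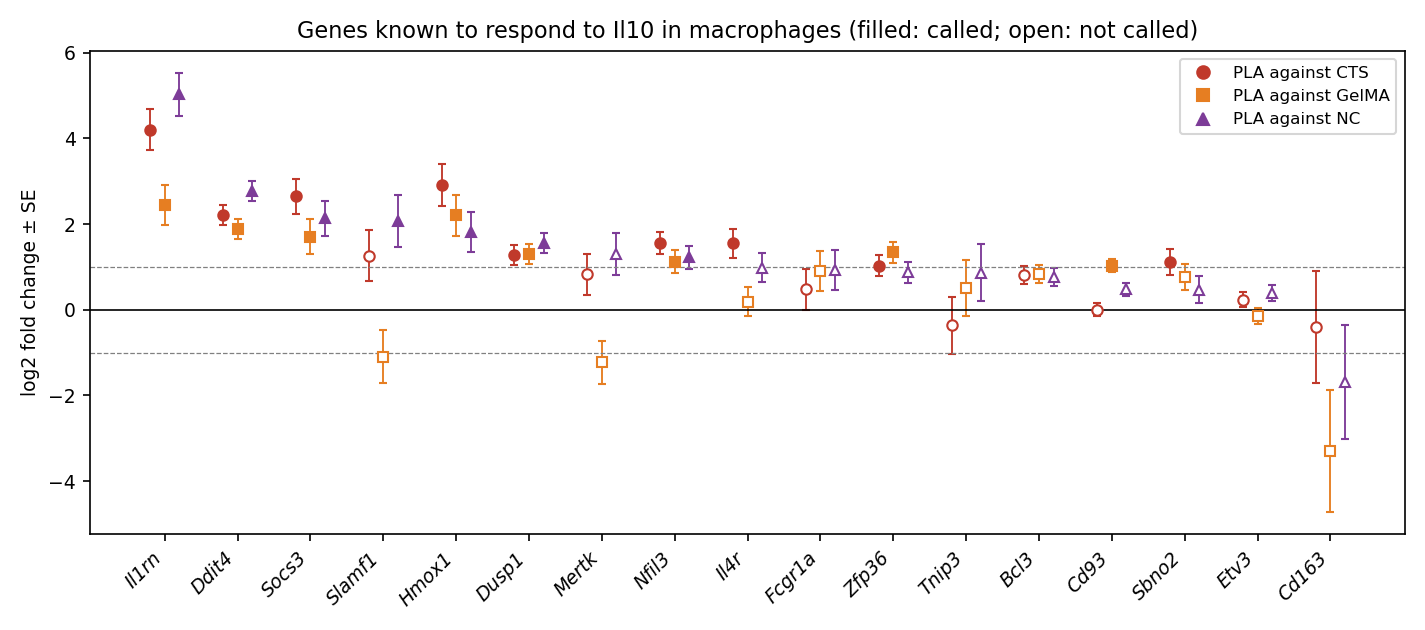
Log2 fold change of the 17 tested genes known to respond to Il10, in PLA against CTS, GelMA and NC, ordered by the value against NC, with error bars of 1 SE. Filled symbols were called. Il1rn has the highest values, and the 3 open symbols of Cd163 at the right lie below 0.

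Of 13 transcription factors known to regulate Il10, all were tested. In PLA, 6 were higher than in CTS, 3 higher than in GelMA and 7 higher than in NC, and 0 were lower, beside the 6.42%, 4.61% and 8.32% of all genes called higher. Against NC the count was 3 with the 2 groups fitted alone and 4 by library size alone. Against GelMA, 2 were higher and 2 lower by library size alone and in the limma fits on FPKM. With PLA and GelMA fitted alone, or without NC replicate 2, 3 were higher and 1 lower. Batf, a partner of AP-1 and IRF factors in lymphoid and myeloid cells, averaged 124 ± 28.2 CPM in PLA (SD, n = 2), 5.25 ± 1.22 CPM in CTS, 18.4 ± 5.09 CPM in GelMA and 4.71 ± 1.15 CPM in NC (SD, n = 3 each). It was higher in PLA by 4.56 ± 0.32, 2.75 ± 0.30 and 4.72 ± 0.32 against CTS, GelMA and NC, and higher in GelMA than in NC by 1.97 ± 0.28. By mean, PLA was first for Batf and GelMA second, as for Il10, whereas CTS and NC did not differ beyond the test. Prdm1, which encodes Blimp-1, was higher in PLA than in CTS by 2.18 ± 0.37 and than in NC by 2.80 ± 0.38, and was at 0.19 ± 0.37 against GelMA. Cebpb rose by 1.65 ± 0.15, 1.61 ± 0.15 and 1.85 ± 0.15 against CTS, GelMA and NC. Maf, a main activator of Il10 in T cells and macrophages, was not called, at 0.33 ± 0.46, -0.80 ± 0.48 and 0.30 ± 0.46 in the same order, and neither was Irf4.

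The neighbours of the members on the chromosome were followed as well. Of 11 genes listed beside the ligand cluster, 9 were tested. Mapkapk2, a kinase that stabilises cytokine mRNAs and the coding gene next to Il10, was higher in PLA by 1.71 ± 0.18 against CTS, 1.71 ± 0.18 against GelMA and 1.80 ± 0.18 against NC, and kept the calls without any one library. Its level was 861 ± 59.5 CPM in PLA (SD, n = 2), 264 ± 29.7 CPM in CTS, 264 ± 14.2 CPM in GelMA and 246 ± 41.8 CPM in NC (SD, n = 3 each), so GelMA, second for Il10, did not stand out for its neighbour. Dyrk3, the next gene along, was lower in PLA than in CTS, at -1.70 ± 0.40 (edgeR adjusted p 0.0213, up to 0.171 without 1 PLA or CTS library). Fcmr, on the other side, was higher in GelMA than in NC by 2.95 ± 0.77 (edgeR adjusted p 0.0380, up to 0.120 without 1 library).

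Il10rb lies between Ifnar2 and Ifnar1, the chains of the type I interferon receptor. Both were called higher in PLA in all 3 comparisons, as Il10rb was. Ifnar2 was at 1.83 ± 0.15, 1.54 ± 0.15 and 1.84 ± 0.15 against CTS, GelMA and NC, and Ifnar1 at 1.46 ± 0.21, 1.16 ± 0.21 and 1.64 ± 0.21, whose call against GelMA was lost without either PLA library. Ifngr2, a chain of the type II interferon receptor that follows Ifnar1, was called against NC, at 1.23 ± 0.17, and came to 0.99 and 0.96 against CTS and GelMA. Of the other 4 genes listed there, none was called, and Gart was at -0.91 ± 0.24 against CTS. By scaling on library size alone, Ifnar1 lost its calls against CTS and GelMA, Ifnar2 lost that against GelMA and Ifngr2 lost that against NC, while those of Il10rb stood.

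Across the 11 libraries, the genes whose log2(CPM + 1) was most like that of a member were named as a description. For Il10 these were Mir155hg, the host of a microRNA of activated immune cells (Pearson r 0.986), the chemokine Cxcl6 (0.985) and Gna13 (0.982). For Il19 they were Ccnl2 (0.994), Zfp142 (0.993) and Kdm3a (0.990), and for Il10rb Il1rap, an accessory chain of the interleukin 1 receptor (0.994), Sts (0.994) and Tmem33 (0.994). For Il10ra they were LOC100361457 (0.985), Skap2 (0.982) and Actg1 (0.981), and for Il20rb Alox12e (0.961), Stk16 (0.949) and LOC120102869 (0.944). Il24 was left out for its level under 1 CPM. Among the members themselves, Il19 and Il10rb were the most alike (0.969), Il10 and Il20rb the most opposed (-0.84), and Il10ra stood apart from Il10 (-0.05). All such values rest on the same 11 libraries and on the gaps between groups. For Il10, Il19 and Il10rb, PLA lay above the rest. For Il20rb, PLA and GelMA lay below CTS and NC. Il10ra had no gap between PLA and the rest, and its lowest level was in NC replicate 2.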

How the data were processed

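Per the labels and the study's methods, RNA of sorted Cd45- cells was prepared with the VAHTS Universal V6 kit. The submitters' notes name fastp, HISAT2, the build mRatBN7.2, HTSeq and DESeq, and the tables the authors deposited hold raw counts and FPKM for 23781 genes by symbol. Versions, the annotation and the strand setting are not given in the sources used here, so antisense reads may be included. The FPKM of the authors was recomputed from the count, a length per gene and the sum of the library, and the values matched within a share of 0.001 of their size (205408 of 205408 above 0), and the length used for Il19 was 8118 bases.

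The counts went into edgeR 4.0.16 under R 4.3.3. They were filtered by filterByExpr (minimum count 10), scaled by TMM and fitted in a robust quasi-likelihood model of the 4 groups. The SE is the log2 fold change over the square root of F. Replicates were compared for duplicates, and none were found. Members, lists and the rule for named genes (all members, and from each list the called genes with the largest change, up to 3 in each direction) were chosen with earlier results of these data known. Cd163, Mertk, Stat3, Maf and other genes that were not called were named after their values were seen. Alternatives were RLE and library-size scaling, no low-count filter, no limit on the fold, a threshold of 0.01 on adjusted p, each pair of groups alone, DESeq2 1.42.0, limma 3.58.1 on log2(FPKM + 0.1) and on log2(FPKM + 1), where genes were also limited to those at FPKM 1 or more in 2 libraries, a replicate block and leaving out each library. Steps were tested on simulated data. Promoters and neighbours came from RefSeq tables of GRCr8, matched by symbol, with 5 of 6 members found among the promoters. The result of 1 listed signal transducer is not reported here.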

Additional observations from a re-analysis of the deposited data

How the results depend on the processing

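The PLA calls of Il19 and Il10rb in all 3 comparisons, those of Il10 against CTS and NC, and the GelMA call of Il10 against NC stood in all 22 alternatives. Among the 22, the setting with no limit on the fold reuses the main fit, so it cannot lose a call. For Il10 in PLA against GelMA, 11 of 22 kept the call. It was lost by library size alone, at an adjusted p under 0.01, in the 3 limma fits (log2 fold changes 0.84 to 0.86), under the replicate block (adjusted p 0.0787) and without 5 of 11 libraries. At an adjusted p under 0.01, 0 members were called in CTS against GelMA and 1 in GelMA against NC. DESeq2 called 1 member in CTS against NC, where Il10 was at 1.23 (adjusted p 0.0118). Leaving out a library gave 3 to 4 members called in PLA against CTS and in PLA against NC, 2 to 3 in PLA against GelMA, 0 to 3 in CTS against GelMA, 0 in CTS against NC and 1 to 2 in GelMA against NC. Of the members that were not called, some changed sign. Il10ra in PLA against CTS was at 0.0267 with RLE factors and with DESeq2, and ranged between -0.187 and 0.0443 without a library. Il10ra in PLA against NC was at -0.154 by library size alone and between -0.126 and 0.668 without a library. Il10rb in CTS against NC was at 0.0793 by library size alone, at 0.105 or 0.111 in the 3 limma fits, and between -0.132 and 0.0319 without a library. In CTS against NC without a library, Il20rb ranged between -0.253 and 0.627, Il24 between -1.59 and 0.0696, and Il10ra between -0.118 and 0.675. The causes of these changes were not tested.

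Counts over all genes moved more. They ranged over the alternatives other than leaving out a library between 845 and 2949 in PLA against CTS (1795 in the main result), 461 and 2913 in PLA against GelMA (1098), 624 and 3268 in PLA against NC (2226), 35 and 1539 in CTS against GelMA (314), 0 and 588 in CTS against NC (32) and 544 and 2759 in GelMA against NC (1488). Without a library they ranged between 769 and 2699, 404 and 1912, 1042 and 3401, 3 and 1275, 0 and 135, and 599 and 2498 in the same order. By library size alone, the share of calls that were higher was 23.6% in place of 64.5% in PLA against CTS, 15.9% in place of 75.8% in PLA against GelMA, 41.3% in place of 67.5% in PLA against NC, 13.0% in place of 23.9% in CTS against GelMA and 74.1% in place of 61.0% in GelMA against NC. Same-numbered libraries did not deviate together (r of -0.23 to 0.34 over 15 pairs, 1 of them above 0.1, and 4 of 11 libraries most like their own number). The numbers were therefore not taken as pairs, and the replicate block gave 4, 2, 4, 2, 0 and 2 members called in the 6 comparisons.

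With 2 PLA libraries, a call that needs both was often lost when 1 was left out. Il24 held 0 to 25 counts a library, which limits its precision.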
